A study of Mus musculus with 4 samples.

Results

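The AMPA and NMDA classes of ionotropic glutamate receptor were followed through their subunit genes Gria1, Gria2, Gria4, Grin1, Grin2a, Grin2b, Grin2c, Grin2d and Grin3a. These 9 genes were picked by symbol from the 32285 genes of the count matrices, of which 27632 had at least 1 unique molecular identifier (UMI, a tag that counts one captured RNA molecule) in the nuclei kept. All 9 were detected. Nuclei came from the dissected lateral septum (LS) of male mice aged 6 to 8 weeks, for which the labels name no treatment. The groups were C57J (labelled C57BL/6JNifdc, 2 libraries), nude (labelled BALB/c nude, T-cell deficient mice on the BALB/c background, 1 library) and BALB/c (1 library). Each library pooled 3 mice, so the spread between mice cannot be measured, and every error below is a spread between libraries. The labels place C57J 1 in batch 1 and the other libraries in batch 2.

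Glutamate opens both receptor classes at excitatory synapses. AMPA receptors carry the fast current, and their calcium permeability depends on whether the Gria2 subunit is present and edited. NMDA receptors combine the obligatory Grin1 subunit with Grin2 or Grin3 subunits, need glycine or D-serine as a co-agonist and admit calcium once depolarization relieves their magnesium block. The neurons of the LS are mainly GABAergic and receive much of their glutamatergic input from the hippocampus.

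The libraries held 72912922 to 125998527 UMIs, 10913 to 13075 nuclei were kept in each, and the median depth of a nucleus was between 4227 UMIs in C57J 2 and 8405 UMIs in BALB/c. Pairs of libraries had 29 to 63 barcodes in common. Of the 49425 nuclei, 17863 (36.1%) were LS neurons, which held the highest levels of Trpc4, Dgkg and Homer2, and 10279 (20.8%) stayed unnamed. In all, 13 classes were named from markers, with the members left out of the clustering. Pvalb, a marker tried for the Lhx6 GABAergic neurons, was near 0 there, at 3.23 CPM (UMIs of a gene in 1000000 UMIs of a class). Of their other markers Lhx6 was highest in this class (52.0 CPM). Elavl2 (881) and Kcnc2 (927) were higher in cholinergic neurons, and Nxph1 (678) in oligodendrocyte precursors. The class is mixed, from a cluster of 1095 nuclei led by Meis1 and another of 435 nuclei led by Npy. RNA of neurons was counted in every class, microglia included: the UMIs of 7 neuronal genes (Snap25, Syt1, Snhg11, Rbfox3, Gad1, Gad2 and Meg3) summed to 5635 and 7065 CPM in the microglia of C57J 1 and C57J 2, 7891 in nude and 3655 in BALB/c.

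The pore of each subunit shown here holds a residue that takes part in what the channel lets through. In the AMPA subunits this is the Q/R site, encoded as glutamine in the genome and changed to arginine in the Gria2 RNA by an editing enzyme (Adarb1). In Grin1 and the Grin2 subunits it is the N site, an asparagine that takes part in magnesium block and calcium permeation. Windows of 30 coding bases around these codons are shown for 7 members, because the codon encodes a residue that takes part in ion selectivity. They run 5′ to 3′ on the coding strand, from the GENCODE transcripts of GRCm38 (mm10), with the codon in capitals. For Grin3a no such site was found.
Gria1: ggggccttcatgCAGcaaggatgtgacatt
Gria2: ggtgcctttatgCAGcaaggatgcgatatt
Gria4: ggtgcctttatgCAAcaaggatgtgacatt
Grin1: ggcgtcctgctcAACtctggcattggggaa
Grin2a: ggcctggtcttcAACaattctgtgcccgtc
Grin2c: gcactggtcttcAACaactctgttcccatc
Grin2d: gccctggtgttcAACaactccgtgccagtg

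The codon lay at chr11:57243094-57243096 (+) in exon 11 of 16 of Gria1, at chr3:80706911-80706913 (-) in exon 11 of 16 of Gria2 and at chr9:4464137-4464139 (-) in exon 12 of 17 of Gria4. For the NMDA subunits shown it lay at chr2:25297386-25297388 (-) in exon 14 of 21 of Grin1 and at chr16:9653561-9653563 (-) in exon 8 of 12 of Grin2a. It lay at chr11:115253863-115253865 (-) in exon 9 of 13 of Grin2c and at chr7:45854393-45854395 (-) in exon 8 of 12 of Grin2d. The AMPA windows shared 26 or 27 of 30 bases with each other, the 3 Grin2 windows shown shared 23 to 25, and the Grin1 window shared 10 to 13 with these 3. The UMI counts do not show whether the Q/R site was edited.

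The genes differ widely in length. The AMPA genes are Gria1 (ENSMUSG00000020524) at chr11:57011387-57330244 (+), Gria2 (ENSMUSG00000033981) at chr3:80681450-80802835 (-) and Gria4 (ENSMUSG00000025892) at chr9:4417896-4796234 (-). Grin1 (ENSMUSG00000026959) covers chr2:25291181-25319187 (-) and Grin3a (ENSMUSG00000039579) chr4:49661611-49845744 (-). Among the Grin2 genes, Grin2a (ENSMUSG00000059003) covers 427663 bases at chr16:9567898-9995560 (-) and Grin2b (ENSMUSG00000030209) 460279 bases at chr6:135713233-136173511 (-). Grin2c (ENSMUSG00000020734) covers 18075 bases at chr11:115249169-115267243 (-) and Grin2d (ENSMUSG00000002771) 46496 bases at chr7:45831883-45878378 (-). Because UMIs from nuclei depend on gene length and on priming within introns, the level of a gene was compared between classes and never with the level of another gene. In the annotation, Kdelr1 and Gm45441 overlap Grin2d on the opposite strand, as do Grin1os for Grin1 and Gm14329, Gm14330 and Gm26653 for Grin2b, while Ppp3r2 lies within Grin3a on the same strand. Counts of the opposite-strand pairs are certain only as far as strand was used in counting, which the sources used here do not give. Strand does not separate Ppp3r2 from Grin3a.

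Levels are CPM of a class in a library. Gria1, the AMPA subunit that is delivered to synapses during potentiation, was highest in LS neurons. Its level there was 2737 and 2791 in C57J 1 and 2, 3219 in nude and 3305 in BALB/c (3013 ± 290, mean ± SD, n = 4 libraries). LS neurons stood above striatal Drd2 neurons (1958 ± 66.1), these above striatal Drd1 neurons (1649 ± 89.4) and these above Slc17a6 neurons (1354 ± 64.2), and no neighbours among these classes overlapped over the libraries. Lhx6 GABAergic neurons (682 ± 75.8) and cholinergic neurons (596 ± 278) were among the low classes, where the ranges overlapped with those of astrocytes, neuroblasts and microglia. Gria1 was lowest in newly forming oligodendrocytes (OLs), at 210 ± 65.7.

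Gria2, the subunit that limits calcium entry through AMPA receptors, varied least of the AMPA genes, with 3.30 times between its highest and lowest class. Among the named classes its highest levels were outside the neurons. Some clusters within the LS neurons held more, up to 3579 ± 90.7 in the cluster led by Mob3b and Stac2. Astrocytes held 2838 and 2833 in C57J 1 and C57J 2, 2892 in nude and 2715 in BALB/c, and newly forming OLs held 2836 ± 258. The ranges of these classes overlapped, and each was the highest class in 2 of the 4 libraries. Among neurons, Slc17a6 neurons (2664 ± 52.5) and LS neurons (2550 ± 59.4) overlapped, and both stood above striatal Drd2 (1919 ± 100.3) and Drd1 neurons (1912 ± 127). Lhx6 GABAergic neurons held 1179 ± 99.6 and cholinergic neurons 905 ± 79.4, both in the range of microglia (1130 ± 332).

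Gria4, an AMPA subunit with fast kinetics, was highest in Lhx6 GABAergic neurons. Its level was 1765 and 1812 in C57J 1 and 2, 1651 in nude and 1648 in BALB/c, above every other class in each library. Oligodendrocyte precursors (OPCs) followed at 1186 ± 50.3 and overlapped with LS neurons (1085 ± 78.7). Astrocytes were the lowest class at 242 ± 110.1, so the class among the highest for Gria2 was the lowest for Gria4. The plot of levels by class and library shows these 3 orders side by side.

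**Figure D1:**
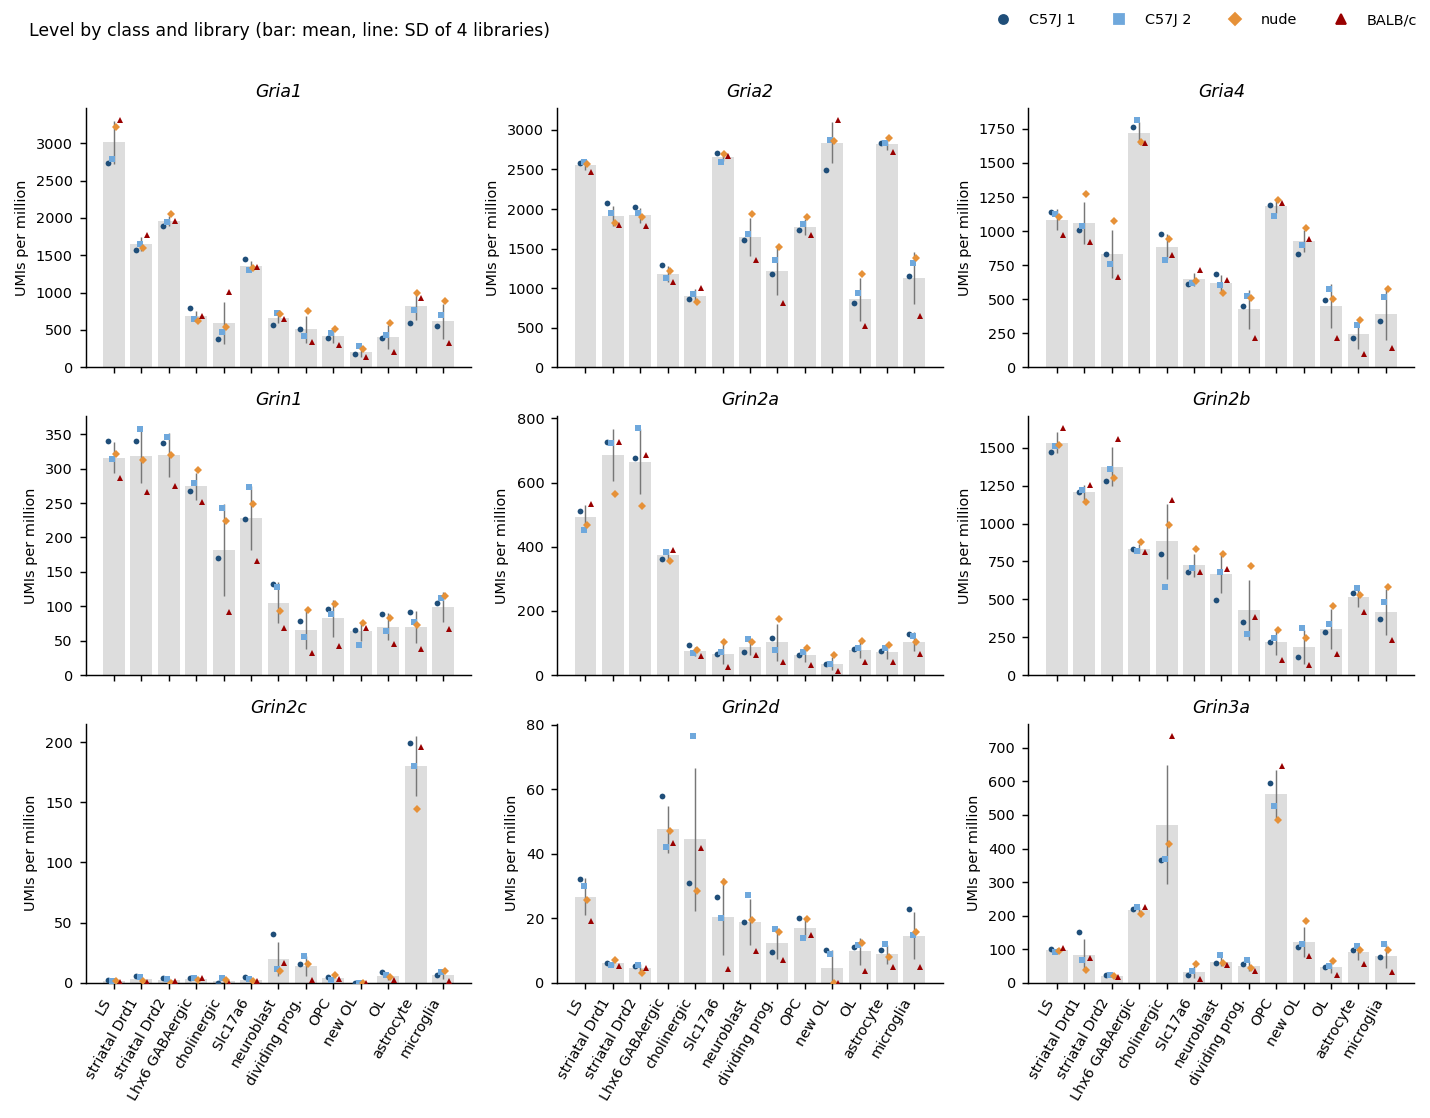
Level of each of the 9 genes in the 13 named classes, in CPM on linear axes from 0, with bars for the mean, lines for the SD and 1 point per library. The points of LS neurons lie above those of all other classes for Gria1 (2737 to 3305), those of Lhx6 GABAergic neurons for Gria4 (1648 to 1812) and those of astrocytes for Grin2c (145 to 199.7).

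Grin1, the obligatory NMDA subunit, had the flattest profile among neurons. It was 320 ± 31.9 in striatal Drd2 neurons, 319 ± 39.9 in striatal Drd1 neurons and 316 ± 22.4 in LS neurons, and no pair of neighbours in its order of classes was separate over the libraries. Lhx6 GABAergic neurons held 275 ± 19.6 and Slc17a6 neurons 228 ± 46.0. OPCs, OLs, astrocytes, newly forming OLs and dividing progenitors lay between 63.5 and 82.3, all below the 99.4 ± 21.97 of microglia.

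Grin2a, the subunit that gives NMDA receptors rapid deactivation, split the neurons into a high and a low set. Striatal Drd1 neurons held 685 ± 80.3, striatal Drd2 neurons 665 ± 101, LS neurons 492 ± 37.6 and Lhx6 GABAergic neurons 373 ± 16.4. Cholinergic neurons (74.3 ± 14.6) and Slc17a6 neurons (66.1 ± 31.4) were lower than microglia (104 ± 28.7) in their means and overlapped with them. In Slc17a6 neurons the level was 65.5 and 71.2 in C57J 1 and 2, 102 in nude and 25.7 in BALB/c. The level of Grin2a in these neurons was therefore within that of glia in the same libraries. With each nucleus thinned to 1000 UMIs, 30.01% of LS nuclei (28.2% to 31.6% over libraries), 43.5% of striatal Drd1 nuclei and 6.35% of Slc17a6 nuclei had a Grin2a UMI, against 9.74% of microglia.

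Grin2b, which gives slower currents than Grin2a, was found in all neuron classes. LS neurons held 1469 and 1514 in C57J 1 and 2, 1521 in nude and 1630 in BALB/c, the highest class in all 4 libraries. Striatal Drd2 neurons held 1375 ± 128 and overlapped with them, and striatal Drd1 neurons followed at 1207 ± 47.8. Cholinergic (882 ± 246), Lhx6 GABAergic (835 ± 29.0) and Slc17a6 neurons (723 ± 73.1) formed a lower group, and the neuroblasts, at 667 ± 128, overlapped with Slc17a6 neurons.

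The share of Grin2b in the summed UMIs of Grin2a and Grin2b was compared between classes, since the lengths of both genes are the same in each. It was 91.9% ± 3.14 in Slc17a6 neurons and 91.8% ± 2.71 in cholinergic neurons, where few Grin2a UMIs were counted. LS neurons held 75.7% ± 1.25 (74.2% to 77.0% over the libraries). Lhx6 GABAergic neurons held 69.1% ± 1.61, striatal Drd2 neurons 67.5% ± 3.42 and striatal Drd1 neurons 63.9% ± 2.06. The range of LS neurons did not overlap with that of any other neuron class, as the plot of the Grin2b share shows.

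**Figure D2:**
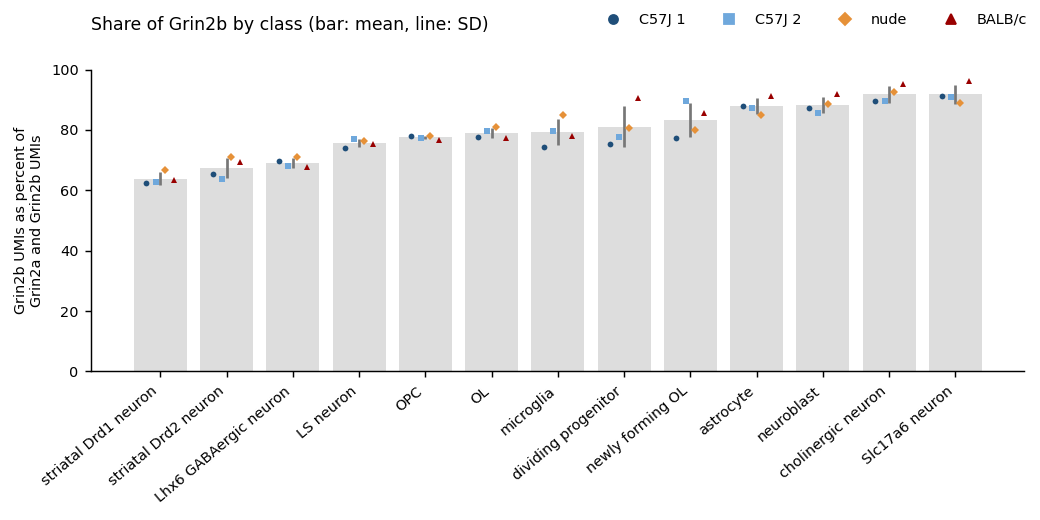
Share of Grin2b in the UMIs of Grin2a and Grin2b (percent) by class, with bars for the mean, lines for the SD and 1 point per library. Slc17a6 and cholinergic neurons have the highest means (91.9% and 91.8%), LS neurons lie between 74.2% and 77.0%, and striatal Drd1 neurons between 62.4% and 66.9%.

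Grin2c was the member most confined to a single class. Astrocytes held 199.7 and 181 CPM in C57J 1 and 2, 145 in nude and 196 in BALB/c. The next named class, neuroblasts, held 19.6 ± 14.4, with 40.8 in C57J 1 and at most 16.3 in the other libraries. A cluster of 910 nuclei that scored for astrocytes and for another class stayed unnamed and held 41.0 CPM with all libraries summed. LS neurons held 1.51 ± 0.556, and newly forming OLs held 0 of 466474 UMIs, which allows a level of up to 6.43 CPM. At 1000 UMIs per nucleus 16.1% of astrocytes had a Grin2c UMI (14.5% to 17.9% over libraries), against 0.708% of microglia and 0.183% of LS neurons. Before thinning the share in astrocytes was 37.6%, at a median depth of 2686 UMIs in astrocytes and 1655.5 UMIs in microglia. The upper limit of 6.43 CPM covers counting error only, while the ranges of the shares are those over the libraries.

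Grin2d, a slowly deactivating subunit typical of interneurons and of the young brain, was highest in Lhx6 GABAergic and cholinergic neurons. Lhx6 GABAergic neurons held 57.9 and 42.0 in C57J 1 and 2, 47.1 in nude and 43.3 in BALB/c. Cholinergic neurons (44.4 ± 22.1) overlapped with them, and LS neurons held 26.7 ± 5.73. Striatal Drd1 and Drd2 neurons held 6.01 ± 0.789 and 4.57 ± 1.16, below the mean of microglia (14.6 ± 7.38).

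Grin3a, which lowers the calcium permeability and magnesium block of NMDA receptors, was highest in OPCs. Its level there was 596 and 527 in C57J 1 and 2, 485 in nude and 646 in BALB/c. Cholinergic neurons held 471 ± 177 and were the higher of the 2 classes in BALB/c, where only 9 cholinergic nuclei were counted. Lhx6 GABAergic neurons held 218 ± 8.69, separate from both neighbours. LS neurons held 97.1 ± 5.73 and striatal Drd2 neurons 21.3 ± 3.50. Striatal Drd1 neurons held 150 in C57J 1 against 38.6 to 73.6 in the other libraries. A Drd1 cluster with Gpr149 and Drd3 among its leading genes held 319 and 52 nuclei in C57J 1 and 2, 15 in nude and 26 in BALB/c, and its part in that level was not tested.

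Levels in glia and precursors were set against microglia of the same library, because UMIs of neuronal genes were found in every class. The 7 neuronal genes gave the range to read the members against. In astrocytes they lay between 0.519 and 0.8002 of their level in microglia, over genes and libraries. There 5 members lay above that range in every library. Grin2c was at 30.5 times microglia in C57J 1, 19.4 times in C57J 2 and 14.7 times in nude. These ratios rest on 4, 5 and 5 Grin2c UMIs in microglia, and in BALB/c the microglia held 1. Gria2 was at 2.71 times as a mean of the library ratios (2.09 to 4.16), Gria1 at 1.52 times (1.07 to 2.82), Grin2b at 1.34 times (0.909 to 1.82) and Grin3a at 1.26 times (0.949 to 1.81). Gria4, at 0.631 times (0.597 to 0.694), was inside the range of the neuronal genes. Grin1, Grin2a and Grin2d were not above it in every library either.

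In OPCs the neuronal genes lay between 0.475 and 1.03 times microglia. Grin3a at 9.54 times (4.57 to 20.8), Gria4 at 4.03 times (2.14 to 8.30) and Gria2 at 1.70 times (1.37 to 2.55) were above them in every library, and the other 6 members were not. BALB/c gave the highest of these ratios, and without it the means were 5.78 for Grin3a, 2.61 for Gria4 and 1.41 for Gria2. At 1000 UMIs per nucleus a Grin3a UMI was found in 41.1% of OPCs (37.4% to 44.3%), 4.90% of OLs and 7.21% of microglia. In newly forming OLs, the stage between OPCs and OLs, Gria4 at 3.12 times (1.99 without BALB/c) and Gria2 at 2.79 times (2.13 without BALB/c) stood above the neuronal genes (0.165 to 1.02). In mature OLs only Gria4 did, at 1.23 times (0.878 to 1.47) against 0.590 to 0.825. Along OPCs, newly forming OLs and OLs, Grin3a was 564, 121 and 45.6 CPM, Gria4 was 1186, 925 and 447, and Gria2 was 1778, 2836 and 859. The ranges of these 3 genes did not overlap between neighbouring stages. The newly forming OLs rest on 113 nuclei, of which 11 were in BALB/c. In neuroblasts and dividing progenitors no member exceeded the neuronal genes in every library, but there these genes reached 3.09 and 1.89 times microglia. At 1000 UMIs per nucleus a Gad1 UMI was found in 43.1% of neuroblasts and 27.8% of dividing progenitors, against 19.3% of microglia. The neuronal genes therefore cannot serve as a measure of RNA from other cells in these classes, and nothing is concluded on the members there.

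**Figure D3:**
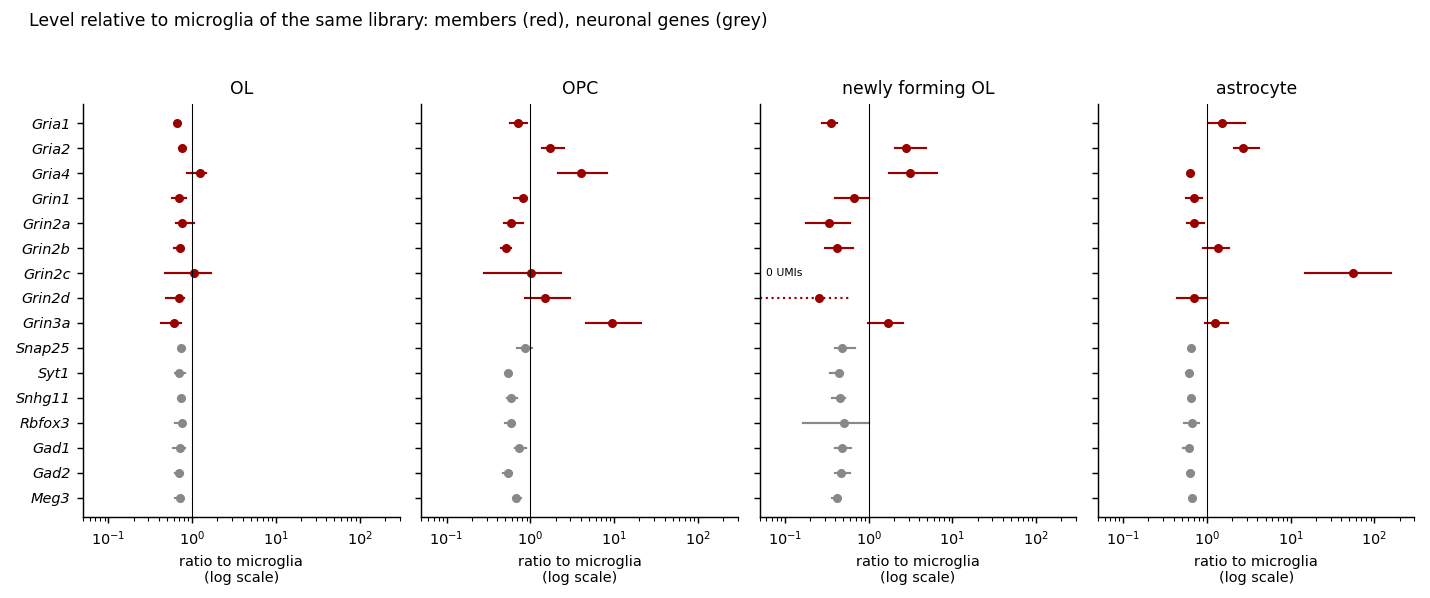
Level of each member (red) and of the 7 neuronal genes (grey) in OLs, OPCs, newly forming OLs and astrocytes relative to microglia of the same library, on a log axis, with a point for the mean and a line for the range over the 4 libraries (dotted where a library was at 0). Grin2c in astrocytes and Grin3a in OPCs lie farthest to the right, and the upper ends of both lines come from BALB/c, whose microglia held 1 Grin2c UMI and 25 Grin3a UMIs.

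LS neurons fell into 22 clusters, of which 20 had at least 20 nuclei in each library, and the members' levels in these 20 are given as a description. Each cluster is called by its 2 leading genes. Grin2a differed most, with 38.7 times between the highest and lowest cluster, followed by Grin3a with 27.1 times and Gria1 with 6.69 times. Grin2d differed by 4.77 times, Gria4 by 3.19 times, Grin2b by 3.09 times, Gria2 by 2.04 times and Grin1 by 1.56 times. Grin2c was at or below 2.79 CPM in all 20.

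Grin2a was highest in the Eya4/Pax6 cluster, at 895 and 884 in C57J 1 and 2, 987 in nude and 1425 in BALB/c, and in the Col15a1/Hmcn1 cluster, at 1032 ± 50.0. It was lowest in the Col9a1/Trpc6 cluster, at 39.3 and 21.9 in C57J 1 and 2, 28.4 in nude and 18.6 in BALB/c. The Mob3b/Stac2 (63.0 ± 5.81) and Rai14/Pde1c clusters (67.9 ± 13.1) were close to it. In these 3 clusters the mean of Grin2a was below that of microglia, while Grin2b reached 2806 ± 265 in the Col9a1/Trpc6 cluster and 2719 ± 148 in the Mob3b/Stac2 cluster (the top and the third of its 20 levels). The share of Grin2b ran from 57.1% in the Col15a1/Hmcn1 cluster (56.6% to 57.8% over the libraries) to 99.0% in the Col9a1/Trpc6 cluster (98.7% to 99.4%), and was 97.7% in the Mob3b/Stac2, 97.4% in the Rai14/Pde1c and 96.2% in the Dach2/Tafa1 cluster.

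Grin3a was highest in the Drd3/Gfra1 cluster, at 355 and 335 in C57J 1 and 2, 313 in nude and 324 in BALB/c. The Tmem132c/D7Ertd443e cluster followed at 281 ± 57.1, and the third, Ndst4/Cdh23, held 156 ± 8.01. The Drd3/Gfra1 cluster was also the lowest for Grin2b, at 907 ± 20.2. Grin3a was lowest in the Col9a1/Trpc6 (12.3 ± 7.12) and Mob3b/Stac2 clusters (13.9 ± 5.59), which were low in Grin2a too.

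Gria1 was highest in the Mob3b/Stac2 cluster, at 6223 and 5923 in C57J 1 and 2, 7877 in nude and 8188 in BALB/c. The Eya4/Pax6 (5133 ± 454) and Cpa6/Mctp2 clusters (4539 ± 712) came next, and the Tmem132c/D7Ertd443e cluster was lowest at 1055 ± 86.7. The Mob3b/Stac2 cluster was also the highest for Gria2, at 3579 ± 90.7. Gria4 ran the other way at the top of that order: the Cpa6/Mctp2 (558 ± 84.6) and Eya4/Pax6 clusters (615 ± 104) were its lowest, and the Plod2/Adgrv1 cluster was its highest at 1781 ± 122. Grin1 stayed between 239 and 374 in all 20 clusters.

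**Figure D4:**
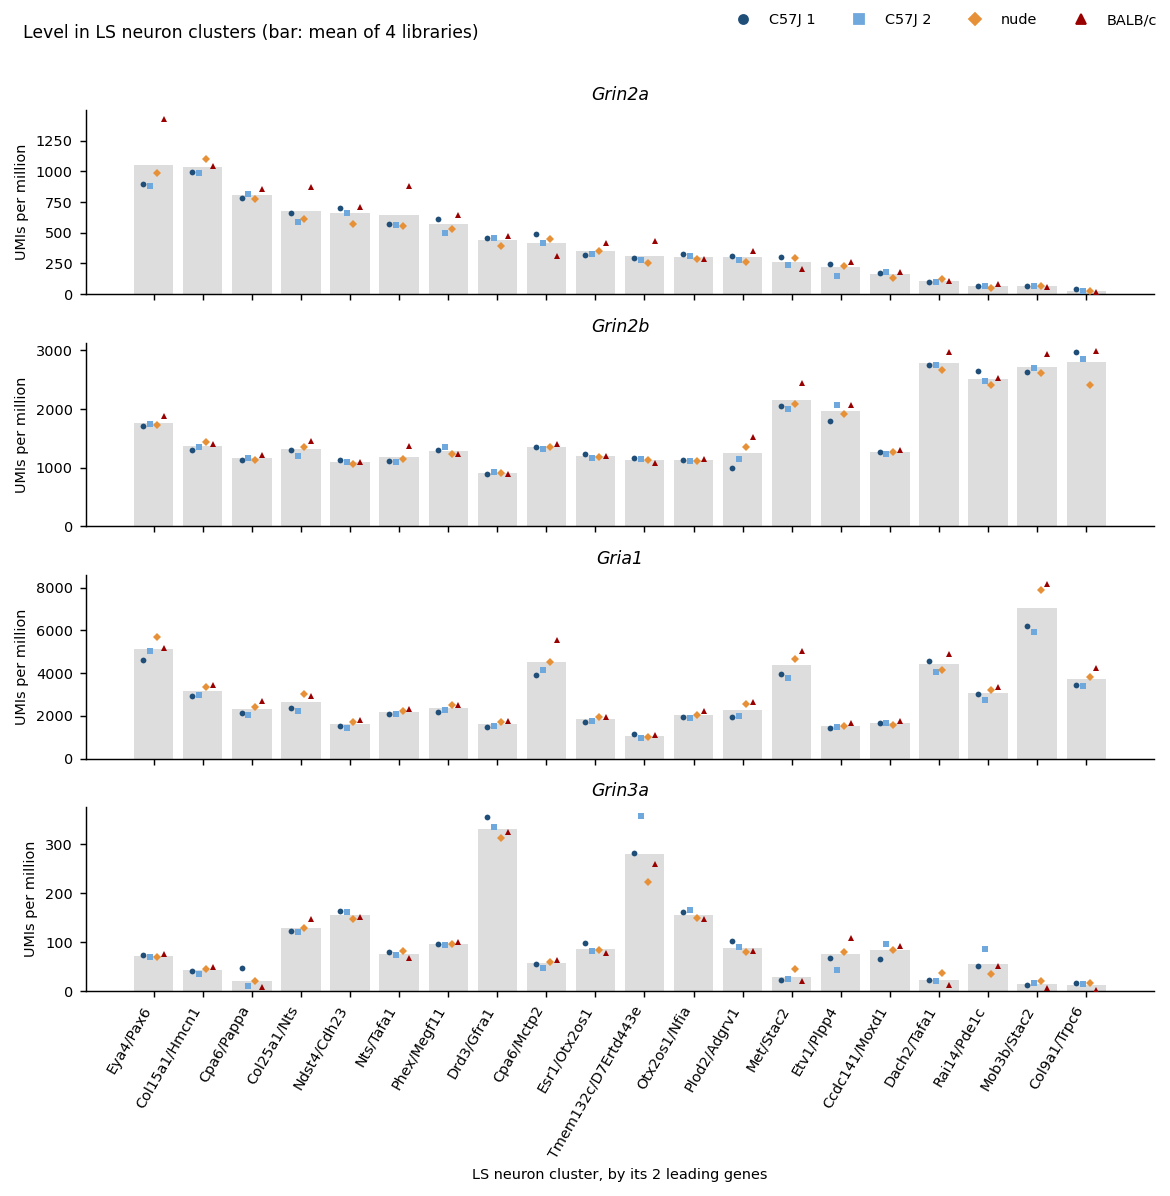
Level of Grin2a, Grin2b, Gria1 and Grin3a in the 20 LS neuron clusters with at least 20 nuclei per library, ordered by Grin2a, in CPM on linear axes from 0, with bars for the mean and 1 point per library. Grin2a falls from 1047 to 27.0 from left to right, while Grin2b is highest in clusters at the right end, and Grin3a is highest in the Drd3/Gfra1 cluster (332).

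Neuron classes were then compared within libraries, with UMIs summed per class and library and tested with edgeR. A gene was counted as called where the adjusted p was under 0.05 and the log2 fold change was past 0.5 in either direction. The sums do not tell fewer nuclei with a transcript from less RNA per nucleus. Against striatal neurons, 3 members were higher and 1 lower in LS neurons. Of the 17840 genes tested 25.6% were called, 14.1% as higher and 11.4% as lower. Gria1 was higher by 0.79 on the log2 scale (SE 0.062, adjusted p = 2.8e-07) and Grin2d by 2.28 (SE 0.13, adjusted p = 1.64e-08). Grin3a was higher by 0.61 (SE 0.18, adjusted p = 0.0136), a call that was lost without C57J 2 (adjusted p = 0.0576), nude (0.0954) or BALB/c (0.0749), while without C57J 1 the fold change was 1.00. After thinning each nucleus to 1000 UMIs the fold change of Grin3a was -0.042 (adjusted p = 0.902), and with predicted doublets kept it was 0.11 (adjusted p = 0.390). Grin2c was lower by 0.97 (log2 fold change -0.97, SE 0.31, adjusted p = 0.0224) at levels under 6 CPM, a call lost without C57J 1 (adjusted p = 0.233) or C57J 2 (0.117) and with DESeq2 (0.0924). Grin2a had a log2 fold change of -0.46 (SE 0.071, adjusted p = 0.000159), inside the limit on fold change, and passed it without nude (-0.55), after thinning (-0.59) and with doublets kept (-0.54).

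The glutamate receptor pathway beyond the members was followed through 5 lists of 48 genes. Of the 12 AMPA receptor auxiliary subunits, which bind the receptor and set its gating and delivery, 4 were higher and 4 lower in LS than in striatal neurons (median log2 fold change -0.16, against 0.02 for all genes). Shisa6 (3.56), Cnih3 (2.50) and Cacng5 (1.71) were the highest and Shisa9 (-2.80), Gsg1l (-1.86) and Cacng3 (-1.58) the lowest on the log2 scale. Of 9 kainate and delta receptor genes, Grik1 was higher (1.41) and Neto1 (-1.996), Neto2 (-1.34) and Grik2 (-1.15) were lower. Of 14 scaffold and kinase genes of the postsynapse 3 were higher, led by Dlgap1 (2.22), and 4 lower, led by Dlg1 (-1.11). Of 9 trafficking, clustering and editing genes Grip2 (1.34), Grip1 (1.06) and Nptx1 (0.57) were higher, and Adarb1 was not called.

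Against Lhx6 GABAergic neurons, 3 members were higher and 4 lower in LS neurons. Of 17792 genes 29.2% were called, 14.2% as higher and 15.1% as lower. Gria1 was higher by 2.16 (SE 0.075, adjusted p = 1.29e-12), Gria2 by 1.13 (SE 0.049, adjusted p = 1.69e-11) and Grin2b by 0.89 (SE 0.049, adjusted p = 2.95e-10) on the log2 scale. The lower members were Grin2c (-1.30, SE 0.29), Grin3a (-1.16, SE 0.054), Grin2d (-0.86, SE 0.092) and Gria4 (-0.65, SE 0.049). Grin2c was close to the floor on both sides, at 1.51 CPM in LS and 3.49 in Lhx6 GABAergic neurons, below the mean of microglia (6.73). All 7 calls held with each library left out in turn, and that of Gria4 was lost with doublets kept (-0.41) or stricter quality limits (-0.497). Of the 12 auxiliary subunits 8 were higher, with Cnih3 (3.05), Cacng5 (1.92) and Shisa6 (1.42) at the top, and 3 were lower, Cacng2 (-1.57), Cacng3 (-0.90) and Cacng7 (-0.65), with a list median of 0.98 against 0.00 for all genes. Of the 14 scaffold and kinase genes 9 were higher and 0 lower (median 0.77), led by Camk2a (2.20), a kinase of synaptic potentiation, Homer1 (1.41) and Dlg4 (0.92). Of the kainate and delta genes 0 were higher and Grik2 (-1.49), Neto2 (-1.46) and Grik4 (-1.41) were lower.

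Against the glutamatergic Slc17a6 neurons, 7 members were higher and 0 lower in LS neurons. Of 17521 genes 27.8% were called, 16.1% as higher and 11.7% as lower. The largest difference was that of Grin2a, at 3.13 on the log2 scale (SE 0.21, adjusted p = 5.91e-10), followed by Grin3a at 1.88 (SE 0.21, adjusted p = 9.06e-07). Gria1 was higher by 1.25 (SE 0.092), Grin2b by 1.19 (SE 0.089), Gria4 by 0.85 (SE 0.10), Grin2d by 0.68 (SE 0.22, adjusted p = 0.0233) and Grin1 by 0.59 (SE 0.099). The call of Grin2d was lost without C57J 1 (adjusted p = 0.0674), C57J 2 (0.0803) or BALB/c (0.110), and also with DESeq2 (0.119) or after thinning (0.117), and those of the other 6 held with each library left out. Without TMM the fold change of Grin1 was 0.49, inside the limit. Gria2 did not pass, at 0.04 (SE 0.085, adjusted p = 0.781). Of the scaffold and kinase genes 9 were higher, led by Dlgap2 (2.67), Camk2a (2.12) and Dlgap1 (1.75), and 2 lower, Shank2 (-1.69) and Dlgap4 (-0.84). Of the kainate and delta genes 6 were higher, among them Neto1 (2.05) and Grik1 (1.26), and Neto2 (-0.71) was lower. The auxiliary subunits split into 4 higher, led by Cnih3 (2.87), Shisa9 (2.61) and Shisa7 (2.16), and 4 lower, led by Cacng3 (-1.37), Shisa6 (-1.07) and Cacng7 (-1.05).

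Neuroblasts are newborn neurons that migrate from the ventricular wall. Against them, 8 members were higher in LS neurons and 1 lower. Of 16988 genes 33.2% were called, 20.3% as higher and 12.9% as lower. In this comparison the TMM scaling shifted the median over all genes by 0.42 on the log2 scale (0.18 with it, -0.24 without it), and the folds are relative to that. Grin2a (3.01, SE 0.18), Gria1 (2.62, SE 0.17) and Grin1 (2.07, SE 0.17) differed most, then Grin2b (1.66), Gria4 (1.24), Grin3a (1.10), Gria2 (1.08) and Grin2d (1.02). The neuroblast levels of the first 3 were near those of microglia: Grin2a 87.3 against 104, Gria1 664 against 616 and Grin1 105 against 99.4 CPM. Grin2c was lower by 3.31 (log2 fold change -3.31, SE 0.48, adjusted p = 1.09e-10). This rests on 28 Grin2c UMIs in neuroblasts, whose level ran from 9.79 to 40.8 CPM over the libraries. Without TMM all these directions stayed and only the call of Grin2d was lost (0.59, adjusted p = 0.132), as it was with DESeq2 (adjusted p = 0.0578) and after thinning (0.454). Of the scaffold and kinase genes 11 were higher and 0 lower, and of the auxiliary subunits 7 were higher, with Gsg1l (2.97), Shisa6 (2.83) and Cnih3 (2.12) at the top, while Cacng4 (-0.90) and Cacng5 (-0.58) were lower.

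Between striatal Drd1 and Drd2 neurons, 5.8% of 11184 genes were called (3.3% as higher and 2.5% as lower in Drd1 neurons). The Drd1 class was made of a cluster of 1017 nuclei, the Gpr149 and Drd3 cluster (412 nuclei) and a further cluster of 383 nuclei. The last had Foxp2 and Otof among its leading genes. The folds are therefore those of a mixed class. Of the 7 members tested only Grin3a was called, higher in Drd1 neurons by 2.13 (SE 0.18, adjusted p = 2.32e-08). Without C57J 1, which held most nuclei of the Gpr149 and Drd3 cluster, it was still called at 1.66 (SE 0.21). Grin2c and Grin2d were too low in both to be tested. Of the kainate subunits, Grik1 (1.88) and Grik4 (1.46) were higher and Grik3 (-2.95) was lower in Drd1 neurons. None of the 14 scaffold and kinase genes was called.

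OPCs receive synapses from neurons, and their receptors were compared with those of OLs and astrocytes. Against OLs, 4 members were higher and 0 lower in OPCs. Of 13079 genes 35.8% were called, 19.7% as higher and 16.1% as lower. Grin3a was higher by 3.72 (SE 0.27, adjusted p = 5.17e-06), Gria4 by 1.51 (SE 0.23, adjusted p = 0.000664), Gria2 by 1.12 (SE 0.18, adjusted p = 0.000729) and Grin2d by 0.99 (SE 0.27, adjusted p = 0.0168). The call of Grin2d was lost without C57J 1 (adjusted p = 0.0584) and after thinning (0.0973). Its level was 17.1 CPM in OPCs and 9.74 in OLs, against 14.6 in microglia. Unlike the members, the list genes were not set against microglia, here or against astrocytes below. The part of RNA from neurons in their folds was not tested. Of the auxiliary subunits 7 were higher, led by Cacng4 (5.29), Gsg1l (2.88) and Shisa9 (2.52), and Cacng2 (-0.95) and Cnih3 (-0.81) were lower. Of the kainate and delta genes 7 were higher and 0 lower (median 1.38, against -0.06 for all genes), led by Grik4 (2.96), Grid1 (2.96) and Neto1 (2.19).

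Against astrocytes, 3 members were higher and 4 lower in OPCs. Of 13893 genes 32.4% were called, 15.8% as higher and 16.7% as lower. Grin3a (2.74, SE 0.20), Gria4 (2.49, SE 0.26) and Grin2d (1.11, SE 0.23) were higher. Grin2c (-5.43, SE 0.20, adjusted p = 1.63e-07), Grin2b (-1.29, SE 0.17), Gria1 (-0.91, SE 0.16) and Gria2 (-0.61, SE 0.086) were lower in OPCs. Grin2d was at 17.1 CPM in OPCs and 8.78 in astrocytes, against 14.6 in microglia. In OPCs the levels of Grin2d, Grin2c, Grin2b and Gria1 were not above those of the neuronal genes in every library. All 7 calls held with each library left out in turn, and that of Gria2 was lost with doublets kept (-0.47). Of the kainate and delta genes 8 were higher in OPCs and 0 lower (median 1.39), led by Grik4 (3.40), Grik3 (2.72) and Neto1 (2.40). Of the 4 genes of co-agonist supply, Slc7a10 (-3.20), a transporter of small neutral amino acids that include D-serine, Slc1a4 (-1.55) and Slc6a9 (-0.58), a glycine transporter, were lower in OPCs.

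For each member, the 2 genes with the most similar profile were found among 12015 candidates by Pearson's r of log2(CPM + 1) over 52 points (13 classes in 4 libraries), which share libraries and depth. Grin2a was matched by Dlgap2 (r = 0.9497) and Caln1 (0.897), Gria1 by Kalrn (0.933) and Syt7 (0.872), and Grin1 by Rapgef4 (0.925) and Sptbn4 (0.909). Grin2b was matched by Zfp385b (0.923) and Ripor2 (0.890), Gria4 by Ica1 (0.903) and Nalcn (0.867), and Grin2c by Phkg1 (0.895) and Cpe (0.890). Gria2, Grin2d and Grin3a had looser matches, with Lsamp (0.822), Pnma3 (0.833) and Plpp4 (0.808) as the closest genes. Between members r was highest for Gria1 and Grin2b (0.883) and lowest for Gria4 and Grin2c (-0.536). These values are descriptions of the same classes.

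The study compared its C57J cohort with the nude and BALB/c mice, and the members were tested between the same groups. The test was edgeR on sums per library, in the 11 classes with at least 20 nuclei in every library. In it nude and BALB/c, which differ in genotype, stood as replicates of a group, and the C57J pair came from different batches. The p-values are set against both differences, which were wide for some members: Gria4 in OLs was 505 CPM in nude and 212 in BALB/c. A gene without a call can thus still differ between the groups. Of the members, 0 of 88 tests of a member in a class were called, 6 of them had an unadjusted p below 0.05, and DESeq2 also called 0. That unadjusted limit was passed by 2691 of 18342 genes in LS, 1078 of 11314 in striatal Drd1 and 711 of 9323 in Drd2 neurons. In Lhx6 GABAergic neurons 1211 of 12591 passed it, in Slc17a6 neurons 528 of 9880 and in neuroblasts 356 of 5626. It was passed by 809 of 10857 genes in OPCs, 671 of 12607 in OLs and 1010 of 13851 in astrocytes. In microglia 441 of 8902 passed and in dividing progenitors 215 of 6094. Of all genes tested in LS neurons 2.34% were called, 1.01% as higher and 1.32% as lower in nude and BALB/c. The share was 0.477% in striatal Drd1 neurons (0.239% in each direction), 0.472% in striatal Drd2 neurons (0.193% higher, 0.279% lower), 0.731% in Lhx6 GABAergic neurons (0.27% higher, 0.461% lower) and 0.0506% in Slc17a6 neurons (0.0202% higher, 0.0304% lower). It was 0.0711% in neuroblasts (0.0355% in each direction), 0.313% in OPCs (0.157% in each direction), 0.00793% in OLs (all lower), 0.13% in astrocytes (0.0361% higher, 0.0939% lower) and 0% in dividing progenitors and microglia. None of 484 tests of the pathway genes was called either.

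Gria1 in LS neurons came nearest to a call by its p-value, but its fold change was inside the limit of 0.5. Its levels, given above for each library, did not overlap between the groups. The log2 fold change was 0.26 (SE 0.065, unadjusted p = 0.00487, adjusted p = 0.109). Against C57J 2, of the same batch, it was 0.27 (adjusted p = 0.236). Gria1 was also higher in the astrocytes of nude (991) and BALB/c (923) than in those of C57J 1 (589) and C57J 2 (762), at 0.58 on the log2 scale (SE 0.20, adjusted p = 0.608). It was the 1 member above C57J without overlap in astrocytes, and 4 lay below (Grin1, Grin2b, Grin2d and Grin3a). Of all genes tested in astrocytes 12.5% lay above and 25.2% below. Grin2d was lower in LS neurons, at 32.1 and 29.9 in the C57J libraries, 25.5 for nude and 19.1 for BALB/c (log2 fold change -0.45, SE 0.15, adjusted p = 0.228). In LS neurons 2 members lay above C57J and 3 below without overlap, against 18.7% and 26.8% of all genes tested. Grin3a in striatal Drd1 neurons had a log2 fold change of -0.91 (SE 0.37, adjusted p = 0.460), which was -0.17 (adjusted p = 0.960) without C57J 1 and was called at -1.33 (adjusted p = 0.00696) without C57J 2, a fit that called 2% of all genes. The plot of fold changes against C57J gives every member tested in each class.

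The nude and BALB/c libraries were far apart in glia. Without nude, which leaves 1 BALB/c library that is assumed to vary like the C57J pair, 18 tests were called in 6 classes: 5 members in astrocytes, 4 in OLs, 3 in OPCs, 3 in microglia, 2 in Slc17a6 neurons and 1 in dividing progenitors. Calls over all genes rose in the same fits, to 9.6% in astrocytes, 5.6% in OLs, 4.19% in OPCs, 10.4% in microglia, 3.83% in Slc17a6 neurons and 2.37% in dividing progenitors. For the members called, the log2 fold changes ran from -0.75 to -2.37 where BALB/c was lower, and Gria1 in astrocytes was higher (0.59). Like the members called lower, the 7 neuronal genes were lower in BALB/c in OLs and astrocytes, unlike Gria1 in astrocytes. In OLs their sum was 4289 and 4542 CPM in the C57J libraries, 6149 for nude and 2456 for BALB/c. In astrocytes it was 3740, 4399, 5048 and 2335. The part of the neuronal genes in these calls was not tested. Without BALB/c, Grin2b in dividing progenitors was the only call, at 1.25 (adjusted p = 0.0271), where 0.199% of all genes were called.

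**Figure D5:**
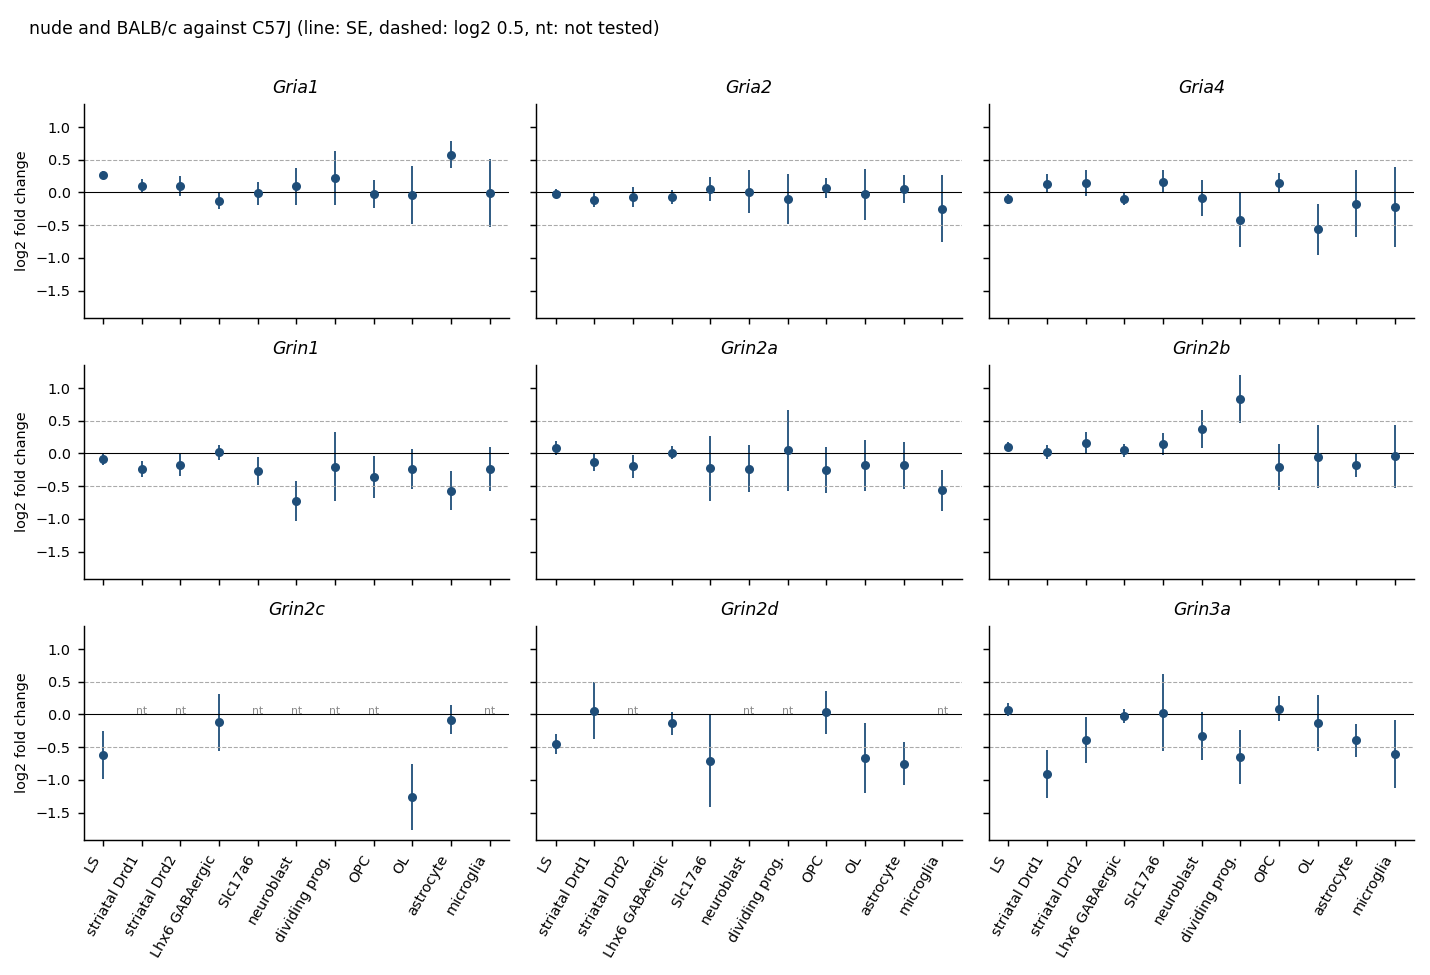
Log2 fold change of nude and BALB/c together against C57J for each gene in the 11 classes tested, with lines for the SE, dashed lines at 0.5 on either side of 0 and nt where a gene was not tested. Gria1 lies at 0.26 in LS neurons and 0.58 in astrocytes, and none of the points was called.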

How the data were processed

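Nuclei of the lateral septum were profiled with the 10x 3′ chemistry in 4 libraries. Reads were aligned by the authors to mm10 with Cell Ranger 7.0.1, and the deposited matrices hold raw UMI counts per gene and barcode. The handling of intronic reads is not given in the sources used here. Barcodes with over 200 and under 6000 genes, over 300 and under 50000 UMIs and under 2% mitochondrial UMIs were retained, and predicted doublets (9.66% to 11.9% per library) were removed. The 4 libraries were clustered together (Leiden algorithm, igraph 0.11.9) without the members, the pathway lists, sex-linked genes and 162 genes whose level over whole libraries differed between C57J and the rest by over 1 on the log2 scale, and clusters were named from markers. UMIs were summed per class and library and tested with edgeR 4.0.16 (R 4.3.3, filterByExpr, TMM, quasi-likelihood test, Benjamini-Hochberg over all genes tested). Class comparisons had the library as a term. In place of the study's Wilcoxon test over nuclei, the library was the unit. Shares of nuclei were computed after thinning to 1000 UMIs, and microglia left out as shallower numbered 70. Since libraries were pools, p-values measure the spread between libraries. In the C57J comparison this spread takes in the difference between nude and BALB/c and that between the batches of C57J.

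The text names all members, at most 3 called list genes per direction and the 2 genes most similar to each member. The members and lists were chosen with earlier results of these data known. Scripts were tested on simulated counts. Alternatives were DESeq2 1.42.0, no TMM, no low-count filter, doublets kept, thinning, stricter quality limits (over 500 genes and 1000 UMIs), another resolution and seed, no library term and each library left out. Pore-site windows came from GENCODE transcripts of GRCm38, in which the identifiers of all 9 members matched the files. Other experiments of the study were not analysed here. A few items are not reported here.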

Additional observations from a re-analysis of the deposited data

Results flagged for a closer look

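In 7 pairs of classes a member lay above both C57J libraries in nude and BALB/c in one class and below both in the other. Of all genes tested, 12.7% to 18.7% lay above both C57J libraries in the classes where a member did so here, and 21.0% to 26.8% lay below in those where a member lay below. None of these differences was tested, and none of the single folds was called. Gria4 was above C57J in Slc17a6 neurons (log2 fold change 0.16) and in OPCs (0.15) and below it in LS neurons (-0.10) and Lhx6 GABAergic neurons (-0.11). The differences between folds were 0.266 for Slc17a6 against LS neurons, 0.269 for Slc17a6 against Lhx6 neurons, 0.250 for OPCs against LS neurons and 0.252 for OPCs against Lhx6 neurons. Grin2b was above C57J in LS neurons (0.10), neuroblasts (0.38) and dividing progenitors (0.83) and below it in astrocytes (-0.17). Here the differences were 0.277 for LS neurons, 0.550 for neuroblasts and 1.00 for dividing progenitors, each against astrocytes.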

How the results depend on the processing

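Of the members' fold changes recomputed under the alternatives, 1845 kept their side of the limits, 27 fell below them, 29 passed them and 2 were counted as reversed. Folds not called in the reported fit could change direction within the 1845. In the C57J comparison with a library left out, Gria1 in OLs ran from -0.86 to 0.52 and Gria2 in OLs from -0.62 to 0.43. Grin3a in LS against striatal neurons was -0.042 after thinning to 1000 UMIs (adjusted p = 0.902), and Grin2c in OPCs against OLs was 0.98 with predicted doublets kept (adjusted p = 0.0310). The cause was not tested. Members called in LS against striatal neurons numbered 2 without a library term and 2 to 4 with a library left out. In the C57J comparison without the low-count filter, where 387 genes were called in striatal Drd1 neurons (54 as reported), members called there numbered 1 (Grin3a). With a library left out the counts were 0 to 5 in astrocytes, 0 to 4 in OLs, 0 to 3 in OPCs and microglia, 0 to 2 in Slc17a6 neurons and 0 to 1 in striatal Drd1 neurons and dividing progenitors. The Grin2b share was 77.7% in LS neurons as a mean over nuclei and 77.6% after thinning, and 88.6% in Slc17a6 neurons with doublets kept. Without thinning, 69.6% of LS nuclei had a Grin2a UMI, 37.6% of astrocytes a Grin2c UMI and 77.3% of OPCs a Grin3a UMI. The highest class changed under some settings for Gria2, Grin1, Grin2a, Grin2d and Grin3a, each time between classes whose ranges overlapped in the reported values. With doublets kept, Drd1 and Drd2 neurons could not be compared. Genes called against C57J varied widely: 429 in LS neurons (57 to 1049), 54 in striatal Drd1 (4 to 387), 44 in striatal Drd2 (4 to 223), 92 in Lhx6 (18 to 373) and 5 in Slc17a6 neurons (1 to 412), 34 in OPCs (16 to 490), 18 in astrocytes (0 to 1418), 1 in OLs (0 to 735), 4 in neuroblasts (0 to 118), and 0 in microglia (0 to 1045) and dividing progenitors (0 to 181). Each class comparison called fewest genes after thinning (2599 against Lhx6 neurons, as reported 5198), except Drd1 against Drd2 neurons (310 without a library term, as reported 649). For the C57J comparison no paired analysis was possible, because the nude and BALB/c groups have 1 library each and the labels pair no libraries between groups.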

Other observations

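Nuclei of 13 clusters stayed without a name, 11 of them clusters of neurons. All libraries are summed in these values, which have no error. Gria1 in the neuron clusters ran from 629 CPM (Onecut2 cluster, 570 nuclei) to 2898 CPM (Angpt1 and Cadps2 cluster, 444 nuclei). The latter held 611 CPM of Gria4, the lowest of the 11. Grin2a ran from 209 CPM in the Onecut2 cluster to 970.1 CPM in the Chst9 cluster (671 nuclei). A cluster of 910 nuclei that scored for astrocytes and for another class held 41.0 CPM of Grin2c and 1142 CPM of Gria2.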
